A study of Oryza sativa with 12 samples.

Results

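The phenylalanine ammonia-lyase (PAL) loci of rice were followed in roots given the signal PEP1 and in roots given ethanol. The family comprised 9 loci chosen by their rice locus IDs, out of 57265 features in the table of read counts: LOC_Os02g41630, LOC_Os02g41650, LOC_Os02g41670 and LOC_Os02g41680 on chromosome 2, LOC_Os04g43760 and LOC_Os04g43800 on chromosome 4, and LOC_Os05g35290, LOC_Os11g48110 and LOC_Os12g33610 on chromosomes 5, 11 and 12. All 9 were present in the table, and 8 passed the filter on low counts. RNA sequencing libraries were made from roots of 7-day-old seedlings of cultivar XS134. The 4 groups were an OsPEP1 RNAi line given 1 µM PEP1, the same line given ethanol, wild type given 1 µM PEP1, and wild type given ethanol, with 3 libraries each. All groups shared the cultivar, tissue and age. The RNAi plants were of 1 transgenic line, the labels name neither its promoter nor the locus it targets, and the level of the targeted gene was not analysed here. The labels do not say whether a group's 3 libraries came from separate plants or cultures. The p-values therefore measure the spread between these samples alone, and that spread may be technical.

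PAL removes ammonia from phenylalanine and so makes cinnamic acid, the entry point of the phenylpropanoid pathway. Cinnamate 4-hydroxylase and 4-coumarate:CoA ligase then make the activated acids from which lignin, flavonoids and many soluble and wall-bound phenolics are built. In roots, lignin strengthens the xylem and the barrier layers, and in many plants PAL genes respond to wounding and to elicitors of defence. Grasses carry several PAL genes, some of them in tandem, and some grass enzymes also accept tyrosine. No sequences or transcript lengths came with the data. Read levels are therefore compared between groups for 1 locus at a time, and shares of the family's reads are shares of reads and not of molecules. The 4 loci on chromosome 2 and the pair on chromosome 4 are near neighbours by ID, so reads of similar copies could have been divided among them.

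Total counts ranged from 15368736 to 21317008 per library. A count of 0 allows up to 3 counts, which is 0.141 to 0.195 CPM depending on the library (CPM is the read count scaled to library size), and this limit covers counting error only. All 3 root markers and all 3 shoot markers had reads in every library. The summed level of the root markers (the silicon transporters Lsi1 and Lsi2, and LOC_Os02g44310) was 2609 to 3432 CPM in RNAi PEP1, 2004 to 2497 CPM in RNAi ethanol, 2009 to 4858 CPM in wild type PEP1 and 1082 to 1689 CPM in wild type ethanol. Lsi1 (log2 change 1.62) and Lsi2 (2.23) rose under PEP1 in the wild type, while LOC_Os02g44310 went the other way without passing (-0.52). In the RNAi line none of the 3 passed, at 0.65 for Lsi1, 1.04 for Lsi2 and -0.83 for LOC_Os02g44310. The root markers thus did not move together. The summed level of the shoot markers (CAB2R, RCA and LOC_Os09g17740) was 55.3 to 744 CPM in RNAi PEP1, 10.3 to 65.3 CPM in RNAi ethanol, 79.7 to 185 CPM in wild type PEP1 and 23.3 to 281 CPM in wild type ethanol. RNAi PEP1 replicate 2 gave the value of 744 CPM, and in the RNAi line the shoot markers were higher under PEP1 by 2.86 to 4.13 in log2 without passing (edgeR adjusted p = 0.0674 to 0.104). The part of these marker differences in the results was not tested. On the first principal component of all tested genes, wild type ethanol replicate 1 (-7.6) and wild type PEP1 replicate 2 (0.6) lay between the other ethanol libraries of the wild type (95.8 and 78.7) and its other PEP1 libraries (-62.7 and -83.2). Calls were also made without 3 libraries chosen after the data were seen: RNAi PEP1 replicate 2, RNAi ethanol replicate 2 and wild type ethanol replicate 1. The choice followed no single rule. Wild type PEP1 replicate 2, and wild type ethanol replicate 2 with the 281 CPM of shoot marker reads, were kept, and each was left out only singly.

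The summed reads of the family were lower under PEP1 in both genotypes. LOC_Os02g41630 and LOC_Os02g41650 together held 81.2% to 95.5% of these reads per library, so the sum mainly follows those loci. Reads of the 9 loci made up 0.559%, 0.607% and 0.516% of all counts in RNAi PEP1, against 1.31%, 1.49% and 1.33% in RNAi ethanol. Wild type shares were 0.594%, 0.537% and 0.558% under PEP1, against 0.951%, 1.43% and 1.15% under ethanol. The groups of a genotype did not overlap. After scaling of the libraries with TMM factors, the sum was 5730 ± 840 CPM in RNAi PEP1 against 13727 ± 1444 CPM in RNAi ethanol, and 5563 ± 581 CPM in wild type PEP1 against 11858 ± 2462 CPM in wild type ethanol (mean ± SD, n = 3 each). The log2 difference of the sums was -1.27 in the RNAi line and -1.08 in the wild type, beside a pooled SD of 0.21 between libraries. The sum is given as a description, with no test. Fewer cells of a type that makes these transcripts and less RNA per cell cannot be told apart in whole roots.

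**Figure D1:**
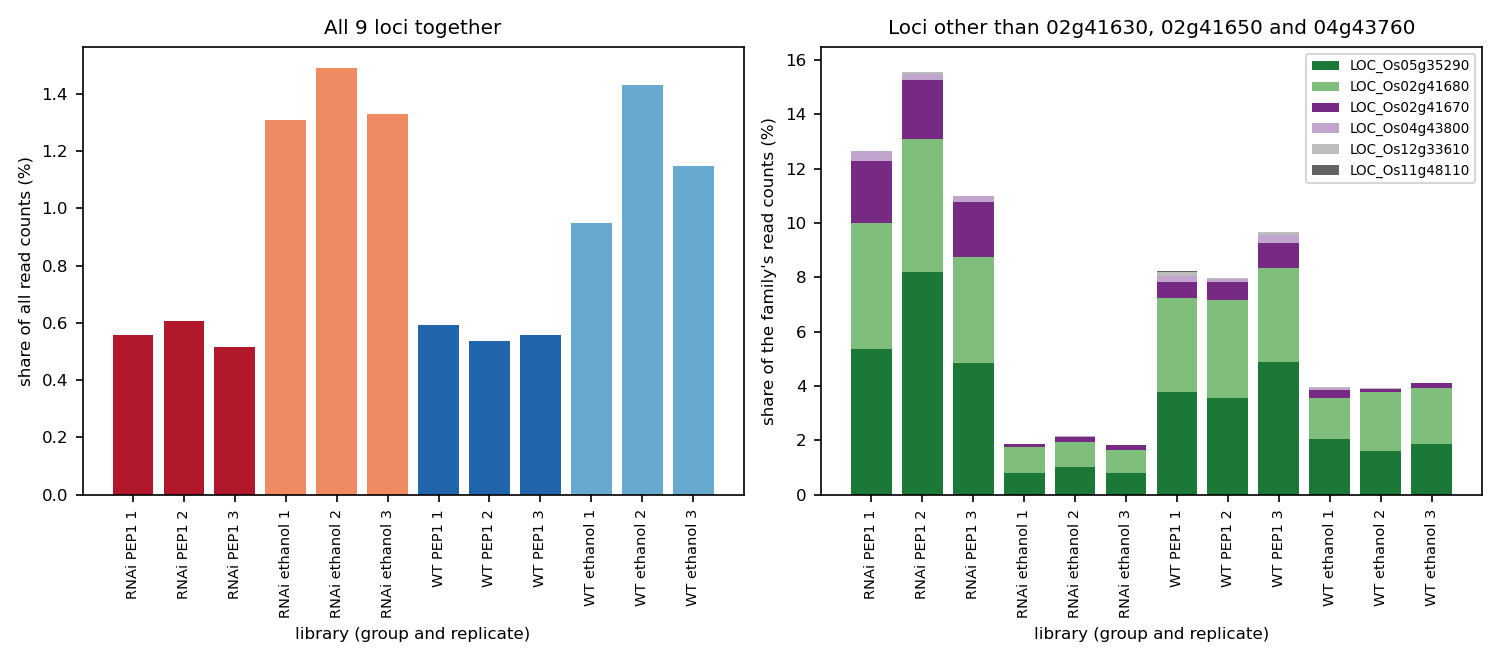
Left, the percentage of all read counts that fell on the 9 phenylalanine ammonia-lyase loci in each library. Right, the percentage of the family's own read counts taken by 6 loci in each library, stacked by locus. All PEP1 bars on the left lie at or below 0.607% and all ethanol bars at or above 0.951%, while the bars on the right are higher under PEP1, at 11.0% to 15.6% in the RNAi line and 7.98% to 9.68% in the wild type.

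Single loci moved in opposite directions. In the RNAi line, 4 of the 8 tested loci rose under PEP1 and 3 fell, while 8.63% of all tested genes rose and 6.65% fell there (15.3% called in all). In the wild type, none of the 8 rose and 3 fell in edgeR's quasi-likelihood test, while 2.52% of all tested genes rose and 2.62% fell (5.14% in all). In the wild type, 2 loci were higher and 3 lower at an unadjusted p below 0.05. That threshold was met by 19.4% of all tested genes there, in either direction. DESeq2, which also tested LOC_Os11g48110, called that locus and LOC_Os04g43800 higher there, and limma-voom called 0. Without the 3 libraries named above, all 7 calls in the RNAi line held (edgeR adjusted p = 0.0036 to 0.0359). So did the 3 falls in the wild type (edgeR adjusted p = 0.00623 to 0.0128), where LOC_Os02g41670 and LOC_Os04g43800 then passed as higher. The median log2 change of the 8 tested loci was 1.04 in the RNAi line and -0.08 in the wild type, beside medians of -0.01 and 0.00 over all genes tested. A locus passed at a Benjamini-Hochberg adjusted p below 0.05 over the 25602 genes tested. The comparisons of the genotypes share no library, although all 12 libraries entered 1 fit and share its estimate of the spread.

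The loci that fell under PEP1 were LOC_Os02g41630, LOC_Os02g41650 and LOC_Os04g43760. LOC_Os02g41630 had 3836, 4143 and 3248 CPM in RNAi PEP1, against 10000, 12456 and 10617 CPM in RNAi ethanol. Its wild type levels were 4096, 3301 and 3981 CPM under PEP1, against 7398, 10163 and 7797 CPM under ethanol. All 6 PEP1 libraries thus lay below all 6 ethanol libraries. Its log2 change was -1.56 ± 0.20 in the RNAi line (SE, edgeR adjusted p = 0.00124), 2.95-fold lower under PEP1. Its wild type change was -1.16 ± 0.20 (edgeR adjusted p = 0.00755), 2.23-fold lower. This locus held 63.4% to 66.8% of the family's reads in RNAi PEP1 against 79.5% to 81.1% in RNAi ethanol, and 67.4% to 68.6% in wild type PEP1 against 69.3% to 73.8% in wild type ethanol.

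LOC_Os02g41650, the next PAL locus on chromosome 2, followed the same course at a lower read level. It had 1007, 1164 and 857 CPM in RNAi PEP1, against 1846, 2208 and 2003 CPM in RNAi ethanol. The wild type had 1019, 862 and 935 CPM under PEP1, against 1762, 2975 and 2037 CPM under ethanol. Again no PEP1 library reached the lowest ethanol library. The log2 change was -1.0 ± 0.21 in the RNAi line (SE, edgeR adjusted p = 0.0125) and -1.27 ± 0.21 in the wild type (edgeR adjusted p = 0.00632). Without RNAi PEP1 replicate 1 the call in the RNAi line was lost (log2 change -1.0, edgeR adjusted p = 0.0524). In a fit of only the 2 wild type groups the calls there were lost for LOC_Os02g41650 (edgeR adjusted p = 0.0647), LOC_Os02g41630 (0.0785) and LOC_Os04g43760 (0.163).

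LOC_Os04g43760 fell in both genotypes. It had 216, 213 and 220 CPM in RNAi PEP1, against 497, 356 and 392 CPM in RNAi ethanol. Wild type libraries had 365, 345 and 341 CPM under PEP1, against 472, 947 and 605 CPM under ethanol. The PEP1 libraries of each genotype lay close together and below its ethanol libraries. The log2 change was -0.94 ± 0.23 in the RNAi line (SE, edgeR adjusted p = 0.0218) and -0.95 ± 0.23 in the wild type (edgeR adjusted p = 0.0376). The call in the RNAi line was lost without RNAi PEP1 replicate 1 or 2 or without RNAi ethanol replicate 1 or 3, with edgeR adjusted p-values of 0.0626 to 0.0801 and log2 changes of -0.98 to -0.79. The call in the wild type was lost without any 1 of 8 libraries (RNAi PEP1 replicates 1 and 3, RNAi ethanol replicate 3, wild type PEP1 replicates 1, 2 and 3, wild type ethanol replicates 2 and 3), with edgeR adjusted p-values of 0.0528 to 0.143. Without wild type ethanol replicate 2 its log2 change there was -0.62.

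The loci that rose under PEP1 in the RNAi line were LOC_Os02g41670, LOC_Os04g43800, LOC_Os05g35290 and LOC_Os02g41680. LOC_Os02g41670 neighbours the falling loci of chromosome 2 by ID and went the other way. It had 131, 141 and 99.4 CPM in RNAi PEP1, against 15.4, 29.6 and 19.8 CPM in RNAi ethanol. Its wild type levels were 35.7, 31.9 and 52.6 CPM under PEP1, against 30.8, 12.8 and 20.3 CPM under ethanol. Every PEP1 library was above every ethanol library, and the RNAi PEP1 libraries stood highest. The log2 change was 2.52 ± 0.35 in the RNAi line (SE, edgeR adjusted p = 0.00178), 5.74-fold higher. The wild type change was 0.91 ± 0.33 (edgeR adjusted p = 0.16), and it passed without wild type ethanol replicate 1 (log2 change 1.26, edgeR adjusted p = 0.039).

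LOC_Os04g43800, the second chromosome 4 locus, had few reads under ethanol. It had 22.1, 15.3 and 10.4 CPM in RNAi PEP1, against 1.38, 1.17 and 1.60 CPM in RNAi ethanol. The wild type had 13.1, 6.71 and 17.4 CPM under PEP1, against 5.95, 0.591 and 1.72 CPM under ethanol. Behind these values stood 223 to 454 counts per library in RNAi PEP1 and 21 to 27 counts in RNAi ethanol, and in the wild type 113 to 353 counts under PEP1 and 10 to 96 counts under ethanol. The PEP1 libraries were above the ethanol libraries in both genotypes. The log2 change was 3.52 ± 0.70 in the RNAi line (SE, edgeR adjusted p = 0.0103), 11.5-fold higher. The change in the wild type was 2.18 ± 0.66 (edgeR adjusted p = 0.0904) and passed in DESeq2 (DESeq2 adjusted p = 0.0102). Without wild type ethanol replicate 1, in which the locus had 5.95 CPM, the log2 change in the wild type was 3.41 (edgeR adjusted p = 0.00725).

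LOC_Os05g35290 and LOC_Os02g41680 rose in the RNAi line and did not pass in the wild type. LOC_Os05g35290 had 310, 537 and 236 CPM in RNAi PEP1, against 98.7, 156 and 105 CPM in RNAi ethanol. Wild type libraries had 226, 175 and 283 CPM under PEP1, against 206, 236 and 203 CPM under ethanol, and these wild type groups overlapped. The log2 change was 1.59 ± 0.30 in the RNAi line (SE, edgeR adjusted p = 0.00871) and 0.09 ± 0.30 in the wild type (edgeR adjusted p = 0.917). The highest value, 537 CPM, came from RNAi PEP1 replicate 2, the library with the most shoot marker reads (744 CPM). Without that library the log2 change in the RNAi line was 1.19 (edgeR adjusted p = 0.0209). LOC_Os02g41680 had 270, 320 and 188 CPM in RNAi PEP1, against 120, 141 and 115 CPM in RNAi ethanol. Its wild type levels were 206, 176 and 203 CPM under PEP1, against 151, 320 and 223 CPM under ethanol, again with overlap. Its log2 change was 1.05 ± 0.26 in the RNAi line (SE, edgeR adjusted p = 0.0248) and -0.24 ± 0.26 in the wild type (edgeR adjusted p = 0.67). The call in the RNAi line was lost without RNAi PEP1 replicate 1 or 2 or any 1 library of RNAi ethanol (log2 change 0.87 to 1.14, edgeR adjusted p = 0.05 to 0.0938).

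**Figure D2:**
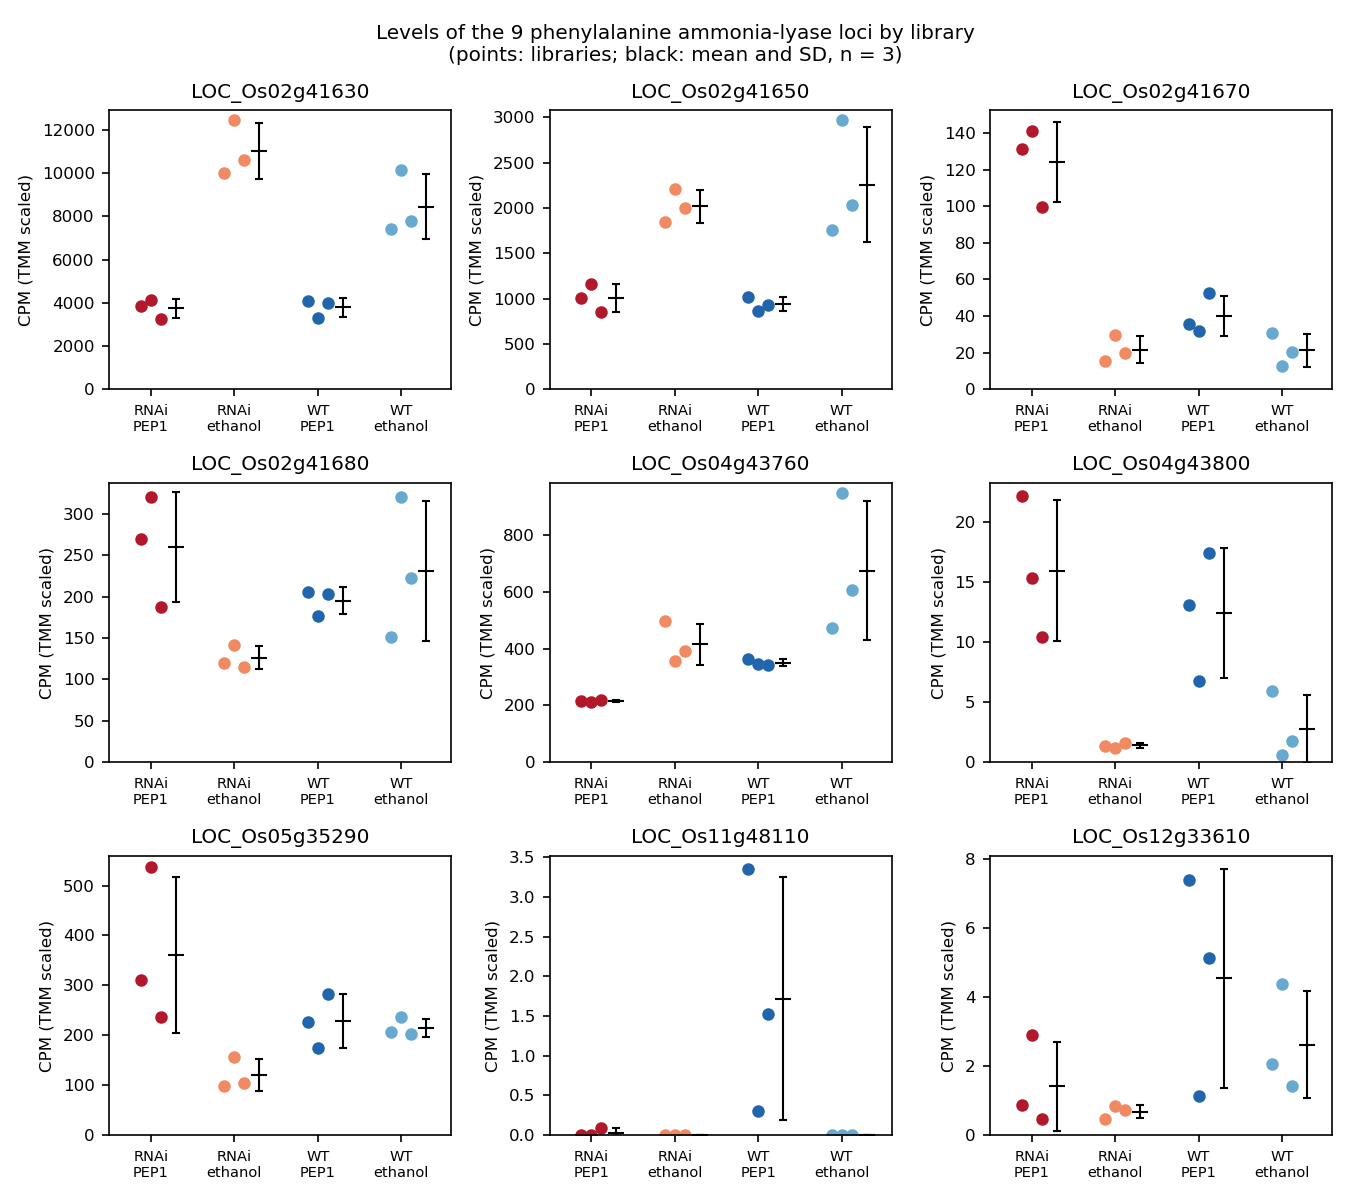
Level of each phenylalanine ammonia-lyase locus in CPM after TMM scaling, by group, with 1 panel per locus and its own linear axis from 0. Coloured points are the 3 libraries of a group and black marks the mean and SD. LOC_Os02g41630, LOC_Os02g41650 and LOC_Os04g43760 are lower under PEP1 in each genotype, LOC_Os02g41670 is highest in RNAi PEP1 (124 ± 21.8 CPM), and LOC_Os11g48110 reaches 3.35 CPM in 1 wild type PEP1 library and at most 0.0932 CPM in the other groups.

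LOC_Os11g48110 and LOC_Os12g33610 had the fewest reads. LOC_Os11g48110 had 0, 0 and 2 counts in RNAi PEP1, against 0 counts in each RNAi ethanol library. Wild type libraries held 68, 5 and 31 counts under PEP1 (3.35, 0.297 and 1.53 CPM), against 0 counts in each ethanol library. Reads were thus found in every wild type PEP1 library and in 1 other library. Taking the group of wild type ethanol at 3 counts, the locus was at least 30.1-fold higher under PEP1 there. Of the 104 counts under PEP1, 68 came from replicate 1, and without that library the bound was 16.1-fold. Leaving out ethanol replicate 2 or 3 gave a bound of 19.9-fold, since fewer reads stood behind the count of 0. It did not pass the filter on low counts and had no test in the fit of all groups. Without that filter it was called in the wild type (edgeR adjusted p = 0.0402), and DESeq2 called it too (DESeq2 adjusted p = 0.00201). In fits that left out a library it passed the filter only through wild type PEP1 replicates 1 and 3, the libraries where it was highest, and it was not tested when either was left out. Those fits therefore lend its call no support.

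LOC_Os12g33610 had 0.875, 2.89 and 0.466 CPM in RNAi PEP1, against 0.461, 0.839 and 0.739 CPM in RNAi ethanol. The wild type had 7.38, 1.13 and 5.12 CPM under PEP1, against 2.05, 4.37 and 1.42 CPM under ethanol. The PEP1 and ethanol groups overlapped in both genotypes, and replicate 2 was the lowest of the wild type PEP1 libraries for this locus and for LOC_Os11g48110. The log2 change was 1.04 ± 0.81 in the RNAi line (SE, edgeR adjusted p = 0.391) and 0.80 ± 0.74 in the wild type (edgeR adjusted p = 0.611). Without RNAi PEP1 replicate 2 the value in the RNAi line was -0.01.

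**Figure D3:**
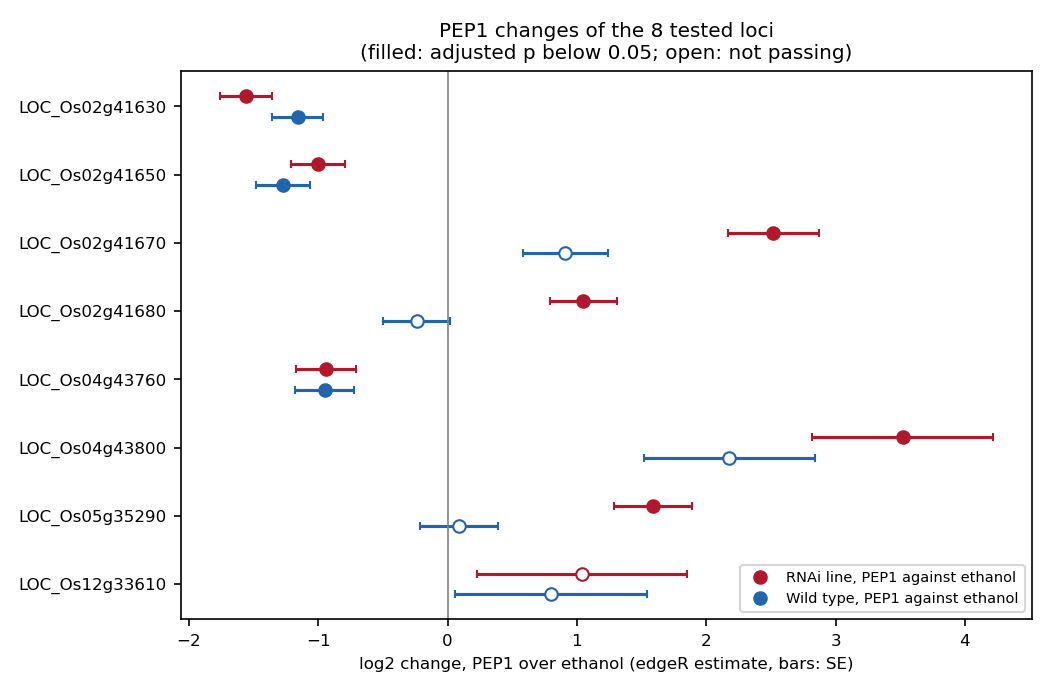
Log2 change under PEP1 against ethanol (horizontal axis, edgeR estimate with its SE) for the 8 tested phenylalanine ammonia-lyase loci, in the RNAi line (red) and the wild type (blue). Filled points passed at an adjusted p below 0.05. LOC_Os02g41630, LOC_Os02g41650 and LOC_Os04g43760 lie left of 0 in both genotypes, and LOC_Os02g41670, LOC_Os02g41680, LOC_Os04g43800 and LOC_Os05g35290 are filled to the right of 0 in the RNAi line.

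These changes altered the make-up of the family's reads. The 6 loci other than LOC_Os02g41630, LOC_Os02g41650 and LOC_Os04g43760 together held 12.7%, 15.6% and 11.0% of the family's reads in RNAi PEP1, against 1.88%, 2.14% and 1.83% in RNAi ethanol. Their wild type shares were 8.24%, 7.98% and 9.68% under PEP1, against 3.95%, 3.91% and 4.12% under ethanol. The division into 3 and 6 loci was made after their values were seen, so it is a description only. In CPM, the sum of these 6 loci was 734, 1017 and 535 in RNAi PEP1, against 236, 329 and 242 in RNAi ethanol. The sum in the wild type was 492, 391 and 563 CPM under PEP1, against 396, 573 and 449 CPM under ethanol. The groups were thus apart in the RNAi line and overlapped in the wild type, where the larger share went with fewer reads from the falling loci.

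Whether the response to PEP1 differed by genotype was tested as an interaction. None of the 8 tested loci passed in edgeR, while 0.00391% of all tested genes did, which is 1 gene. DESeq2 and limma-voom also called 0 of the loci. At an unadjusted p below 0.05, 3 loci differed, each with the more positive change in the RNAi line, beside 5.23% of all tested genes. The interaction was 1.5 ± 0.42 in log2 for LOC_Os05g35290 (SE, edgeR unadjusted p = 0.00447, adjusted p = 0.622). It was 1.29 ± 0.37 for LOC_Os02g41680 (edgeR adjusted p = 0.643) and 1.61 ± 0.47 for LOC_Os02g41670 (edgeR adjusted p = 0.664). For the falling loci the interaction was -0.40 ± 0.28 for LOC_Os02g41630, 0.27 ± 0.29 for LOC_Os02g41650 and 0.01 ± 0.32 for LOC_Os04g43760. A rise that passed in the RNAi line and not in the wild type is therefore not shown to differ between them.

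Between the genotypes, 1 locus passed. Under PEP1, LOC_Os02g41670 was 3.09-fold higher in the RNAi line, at 124 ± 21.8 CPM against 40.1 ± 11.0 CPM in the wild type (mean ± SD, n = 3 each). Its log2 difference was 1.63 ± 0.33 (SE, edgeR adjusted p = 0.0249), and 1.50% of all tested genes were called higher in that comparison (2.63% in either direction). The call was lost without RNAi PEP1 replicate 1 or 2 or wild type PEP1 replicate 1 or 2 (log2 difference 1.49 to 1.59, edgeR adjusted p = 0.081 to 0.132). None of the 8 loci was called lower in edgeR under PEP1, where 1.13% of all tested genes were. At an unadjusted p below 0.05, 2 were lower and 2 higher, and 9.16% of all tested genes met that threshold in either direction. As lower, limma-voom called 0, and DESeq2 called LOC_Os11g48110 (DESeq2 adjusted p = 0.0313), which edgeR without the filter did not (adjusted p = 0.094). LOC_Os04g43760 had a log2 difference of -0.69 ± 0.22 under PEP1 (SE, edgeR adjusted p = 0.231), and without wild type ethanol replicate 2 it passed (-0.70, edgeR adjusted p = 0.0357).

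Under ethanol, none of the 8 loci passed between the genotypes in edgeR, while 2.14% of all tested genes were higher and 1.62% lower in the RNAi line (3.77% in all). At an unadjusted p below 0.05, 4 loci were lower in the RNAi line and 0 higher. That threshold was met by 14.1% of all tested genes, in either direction. DESeq2 called 1 lower, LOC_Os02g41680 (DESeq2 adjusted p = 0.0289), and limma-voom 0. LOC_Os02g41680 was at 126 ± 13.9 CPM in RNAi ethanol and 231 ± 84.7 CPM in wild type ethanol, a log2 difference of -0.88 ± 0.26 (SE, edgeR adjusted p = 0.109). LOC_Os05g35290 was at 120 ± 31.6 CPM in RNAi ethanol and 215 ± 18.3 CPM in wild type ethanol (log2 difference -0.84 ± 0.30, edgeR adjusted p = 0.204). Without wild type ethanol replicate 1, LOC_Os02g41680 (-1.13, edgeR adjusted p = 0.0204) and LOC_Os04g43760 (-0.92, edgeR adjusted p = 0.0307) passed. Without the 3 libraries named above, LOC_Os02g41680 (-1.22, edgeR adjusted p = 0.0278) and LOC_Os05g35290 (-1.12, edgeR adjusted p = 0.0493) passed. These comparisons share their libraries with the PEP1 comparisons.

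Ordered by mean level, the groups fell into these patterns. For LOC_Os02g41630 the order was RNAi ethanol, wild type ethanol, wild type PEP1 and RNAi PEP1, and only the step between the ethanol and the PEP1 groups was free of overlap between libraries. LOC_Os02g41650 had wild type ethanol first and then RNAi ethanol, RNAi PEP1 and wild type PEP1, with the same single gap. For LOC_Os02g41670 the order was RNAi PEP1, wild type PEP1, RNAi ethanol and wild type ethanol, and only the last 2 overlapped. LOC_Os02g41680 and LOC_Os05g35290 had RNAi PEP1 at the top and RNAi ethanol at the bottom. Both wild type groups overlapped each other and RNAi PEP1 in neighbouring steps, and RNAi ethanol lay apart below them. For LOC_Os04g43760, RNAi PEP1 lay apart at the bottom, below wild type PEP1, RNAi ethanol and wild type ethanol. There RNAi ethanol overlapped each wild type group, while the wild type groups did not overlap each other. LOC_Os04g43800 had RNAi PEP1 and wild type PEP1 overlapping at the top, apart from the overlapping ethanol groups. LOC_Os11g48110 had wild type PEP1 apart at the top, and for LOC_Os12g33610 all neighbouring groups overlapped. How often groups lie apart over all tested genes was not counted. Gaps between groups, here and above, are therefore a description only.

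Other genes of the pathway changed in part. The lists held 48 loci written by hand, of which 38 were tested. In the RNAi line, 8 of the 38 rose under PEP1 and 4 fell, with a median log2 change of 0.10. In the wild type, 1 rose and 7 fell, with a median of -0.39. None of the 38 passed in the interaction of genotype and PEP1. A pathway call made in 1 genotype only is therefore not shown to differ between them. The shares of all tested genes that rose or fell are those given for the PAL loci. DAHPS1 (LOC_Os03g27230), named for the enzyme that opens the shikimate pathway to phenylalanine, was the only one of 6 tested supply loci that fell in both genotypes. It averaged 287 ± 25.3 CPM in RNAi PEP1 against 501 ± 73.8 CPM in RNAi ethanol, and 389 ± 29.2 CPM in wild type PEP1 against 889 ± 319 CPM in wild type ethanol (mean ± SD, n = 3 each). In the RNAi line 2 supply loci, LOC_Os01g55870 (log2 change 0.83, edgeR adjusted p = 0.037) and LOC_Os04g33390 (0.75, edgeR adjusted p = 0.0452), rose. Without RNAi PEP1 replicate 2, the library with the most shoot marker reads, their log2 changes were 0.57 (edgeR adjusted p = 0.122) and 0.49 (edgeR adjusted p = 0.155), and the calls were lost in 8 and 12 of 21 alternatives.

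Downstream of PAL, some 4-coumarate:CoA ligases fell and another rose. 4CL3 (LOC_Os02g08100) fell in both genotypes, to 622 ± 168 CPM in RNAi PEP1 against 1292 ± 75.2 CPM in RNAi ethanol, and to 656 ± 82.8 CPM in wild type PEP1 against 1482 ± 468 CPM in wild type ethanol. 4CL5 (LOC_Os08g34790) rose in the RNAi line, to 75.2 ± 31.3 CPM under PEP1 against 16.4 ± 5.34 CPM under ethanol (log2 change 2.20 ± 0.37, SE, edgeR adjusted p = 0.00497). Wild type roots had 4CL5 at 34.7 ± 9.37 CPM under PEP1 and 23.7 ± 8.28 CPM under ethanol, which did not pass. 4CL4 (LOC_Os06g44620) fell in the wild type, to 93.7 ± 1.48 CPM under PEP1 against 136 ± 11.1 CPM under ethanol. Of 6 tested loci in the list of cinnamate 4-hydroxylases and 4-coumarate:CoA ligases, 2 rose (4CL5 and LOC_Os02g26810) and 1 fell in the RNAi line, and 2 fell in the wild type. LOC_Os02g26810 had few reads, at 4.47 ± 0.981 CPM in RNAi PEP1 against 0.65 ± 0.311 CPM in RNAi ethanol. LOC_Os05g25640 of the same list had 679 ± 157 CPM against 532 ± 57.1 CPM there. It passed neither in the RNAi line (log2 change 0.35, edgeR adjusted p = 0.283) nor in the wild type (-0.17, edgeR adjusted p = 0.732).

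Of 12 tested loci for monolignols, the building blocks of lignin, the only one called under PEP1 against ethanol was LOC_Os09g25150, which fell in both genotypes, with log2 changes of -1.25 ± 0.25 in the RNAi line and -1.5 ± 0.25 in the wild type. Of 6 tested flavonoid loci, 1 rose (LOC_Os10g17260) and 1 fell in the RNAi line, and 3 fell in the wild type, among them LOC_Os04g01140. CHS1 (LOC_Os11g32650), chalcone synthase, which starts flavonoid synthesis, had 0.685 ± 0.387 CPM in wild type PEP1 against 8.68 ± 4.25 CPM in wild type ethanol (log2 change -3.67 ± 0.71, SE, edgeR adjusted p = 0.0145). Its level was 0.773 ± 0.447 CPM in RNAi PEP1 and 3.54 ± 2.49 CPM in RNAi ethanol. That change had the same direction and narrowly did not pass (log2 change -2.18 ± 0.68, SE, edgeR adjusted p = 0.0527). CHI (LOC_Os03g60509), chalcone isomerase, which acts after it, fell in both genotypes, by 1.0 ± 0.22 in log2 in the RNAi line and by 0.91 ± 0.22 in the wild type. Of 8 tested loci in the list of regulators, 3 rose in the RNAi line and 1 in the wild type. LOC_Os05g48010 was the one that rose in both, and LOC_Os02g41510 rose in the RNAi line (log2 2.01 ± 0.26, edgeR adjusted p = 0.00129). MYB4 (LOC_Os04g43680), a MYB transcription factor, was the third, at 98.4 ± 9.61 CPM in RNAi PEP1 against 61.1 ± 4.0 CPM in RNAi ethanol. It had 68.1 ± 7.22 CPM in wild type PEP1 and 85.7 ± 10.5 CPM in wild type ethanol, which did not pass. The interaction of MYB4 did not pass either (log2 1.02 ± 0.18, SE, edgeR adjusted p = 0.239). Between the genotypes under PEP1, none of the 38 pathway loci passed, while 2.63% of all tested genes did. Under ethanol, 4 of the 38 were lower in the RNAi line and 0 higher, while 1.62% of all tested genes were lower and 2.14% higher there. Among the 4 was 4CL4 (LOC_Os06g44620), with a log2 difference of -0.44 ± 0.10 (edgeR adjusted p = 0.0326). The other 3 were LOC_Os04g33390, LOC_Os06g06980 and LOC_Os04g01140. None of these 4 passed with a replicate block (edgeR adjusted p = 0.0575 to 0.0776) or without the 3 libraries named above (edgeR adjusted p = 0.0575 to 0.141). Over 21 alternatives, 4CL4 failed in 12, LOC_Os04g33390 in 11, LOC_Os06g06980 in 14 and LOC_Os04g01140 in 8.

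Several pathway calls rested on single libraries or on the choice of fit. In a fit of only the 2 wild type groups, 7 of the 8 pathway calls there were lost, with edgeR adjusted p-values of 0.059 (LOC_Os05g48010) to 0.152 (LOC_Os04g01140), and CHS1 alone of the 8 remained. In the wild type, the fall of DAHPS1 (LOC_Os03g27230) was lost without wild type PEP1 replicate 3 (edgeR adjusted p = 0.0662), that of 4CL4 (LOC_Os06g44620) without PEP1 replicate 1 (0.0533), that of CHS1 (LOC_Os11g32650) without PEP1 replicate 1 or 3 (0.0716 and 0.0706), and that of 4CL3 (LOC_Os02g08100) without any PEP1 replicate or ethanol replicate 2 (0.0515 to 0.0768). LOC_Os05g48010 was also lost without PEP1 replicate 1. The calls of CHI (LOC_Os03g60509) in the wild type and of DAHPS1 in the RNAi line were lost in 9 and 11 of 21 alternatives. The fall of LOC_Os04g01140 in the wild type (edgeR adjusted p = 0.0412) was lost in 13 of 21, among them every fit that left out a wild type library. In the RNAi line, 4CL3 and CHI were each called in 17 of 21, LOC_Os10g17260 in 18, and 4CL5, MYB4, LOC_Os02g26810, LOC_Os02g41510, LOC_Os05g48010 and LOC_Os09g25150 in all 21.

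**Figure D4:**
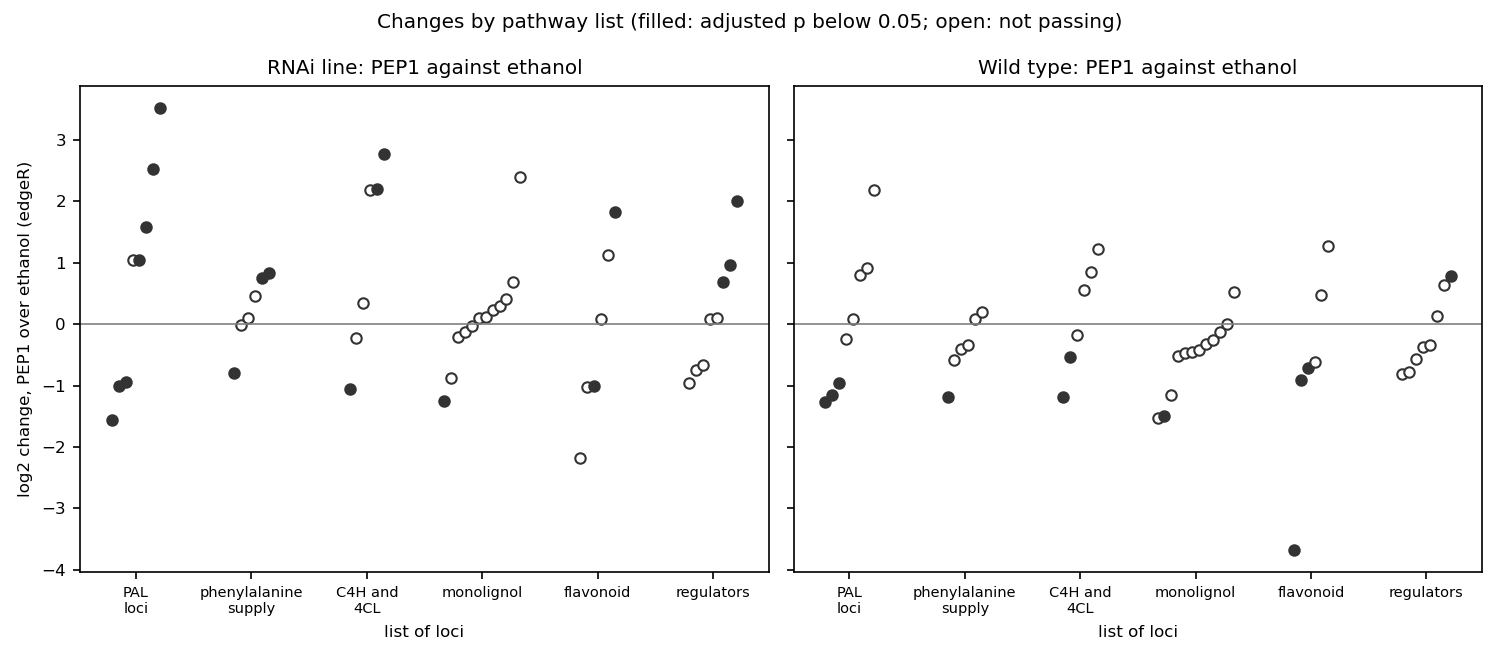
Log2 change under PEP1 against ethanol (vertical axis, edgeR) for the tested phenylalanine ammonia-lyase loci and for 5 lists of pathway loci, in the RNAi line (left) and the wild type (right). Each point is 1 locus, sorted by value within its list, and filled points passed at an adjusted p below 0.05. The PAL loci hold filled points on both sides of 0 in the RNAi line and only below 0 in the wild type, and the lowest point of the wild type panel is CHS1 at -3.67.

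By pattern over the 12 libraries, the gene most like the family sum was LOC_Os03g48970 (Pearson r of log2 levels 0.985), with 102 CPM in RNAi PEP1, 335 CPM in RNAi ethanol, 94.5 CPM in wild type PEP1 and 277 CPM in wild type ethanol. LOC_Os07g34589 came next (r = 0.983). For LOC_Os02g41630 alone they were LOC_Os03g48970 (r = 0.986) and LOC_Os07g37220 (r = 0.984). These coefficients only rank genes for likeness over libraries that share the same 4 groups. The files do not annotate these 3 loci.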

How the data were processed

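The deposited table holds the authors' counts of reads for each gene, as whole numbers without scaling. Which aligner, build, annotation, counter and strand setting were used is not given in the sources used here. Per the labels' protocols, Trizol RNA (1 µg) went into Illumina TruSeq libraries. Columns were matched to samples by title. Counts were tested with edgeR 4.0.16 (R 4.3.3): all 12 libraries in 1 fit of 4 group means, TMM factors, the default filter on low counts (25602 genes kept), a robust quasi-likelihood fit, and Benjamini-Hochberg adjustment over the genes tested. The common dispersion gave a biological coefficient of variation of 0.313. The SE is the absolute log2 change divided by the square root of F. Steps were tested on simulated data. Alternatives were RLE and upper quartile factors, no filter, DESeq2 1.42.0, limma-voom (limma 3.58.1), a replicate block, fits of 2 groups, a summed feature, each library left out, and, chosen after seeing the data, no robust shrinkage and leaving out 3 libraries together (wild type ethanol replicate 1, RNAi ethanol replicate 2 and RNAi PEP1 replicate 2). No library was a duplicate of another in its group.

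The members and lists were chosen with earlier results of these data known. All 9 members are named. Pathway loci are named where they passed, up to 6 per comparison, if the RefSeq gene table of assembly ASM3414082v1 lists the symbol on the same chromosome within 0.03 of the relative position, which held for 21 of 34 symbols written by hand. Unnamed pathway loci given by ID were picked after their values were seen. No locus ID matched that table directly. The 2 genes most like the family sum, and the 2 most like the locus with the highest level, are named by Pearson correlation of log2(CPM + 0.5). No sequence is printed.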

Additional observations from a re-analysis of the deposited data

How the results depend on the processing

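The fall of the family sum kept its direction in both genotypes under 16 alternatives, with log2 differences of -1.36 to -1.15 in the RNAi line and -1.20 to -0.92 in the wild type when single libraries were left out. The sum differed between genotypes by 0.23 under ethanol (0.10 to 0.38) and by 0.04 under PEP1 (-0.06 to 0.15), and the interaction was -0.19 (-0.35 to -0.07). In the RNAi line the loci called under PEP1 numbered 3 to 4 higher and 1 to 3 lower when single libraries were left out (1 lower without RNAi PEP1 replicate 1). In the wild type they numbered 0 to 2 higher (2 without ethanol replicate 1, and LOC_Os11g48110 alone without PEP1 replicate 2) and 2 to 3 lower. Higher loci in the wild type numbered 1 without the filter, 2 in DESeq2 and 2 without the 3 libraries chosen after the data were seen. Lower loci numbered 0 in the fit of 2 groups. With ethanol, loci lower in the RNAi line than in the wild type numbered 0 to 2 with single libraries left out, 1 in DESeq2 and 2 without the 3 libraries. Under PEP1, 0 to 1 were higher and 0 to 1 lower, with 1 lower in DESeq2 and in the fit of 2 groups. The interaction called 0 loci in every alternative run.

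Counts of all called genes also moved. In the wild type, 1315 genes became 2487 in DESeq2, 521 in the fit of 2 groups, 2892 without the 3 libraries, and 573 to 2944 with single libraries left out (573 and 581 without PEP1 replicates 1 and 3, and 2944, 799 and 733 without ethanol replicates 1, 2 and 3). In the RNAi line, 3912 became 6084 in DESeq2, 2325 without the 3 libraries, and 1280 to 5608 with single libraries left out (1464 and 1724 without PEP1 replicates 1 and 2, and 1797, 2265 and 1280 without ethanol replicates 1, 2 and 3). Between genotypes under ethanol, 964 became 1687 in DESeq2, 591 in the fit of 2 groups, 623 without the 3 libraries, and 604 (without RNAi ethanol replicate 3) to 1035. Under PEP1, 674 became 1060 in DESeq2 and 434 (without wild type PEP1 replicate 1) to 741. The interaction called 1 gene, 93 in DESeq2, 4 without the 3 libraries and 0 to 6 with single libraries left out (6 without wild type ethanol replicate 1, 0 without RNAi ethanol replicate 2 or 3 or wild type PEP1 replicate 3).

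Whether the replicate numbers pair the samples was not settled. Of 18 same-numbered pairs, deviations from the group mean correlated by -0.53 to 0.65, and by over 0.1 in 9. Pairs with different numbers were not compared, so these values cannot decide it. With the replicate block, calls were lost for LOC_Os04g43760 in the wild type (adjusted p = 0.0754) and for LOC_Os02g41670 between genotypes under PEP1 (adjusted p = 0.076), leaving 0 loci higher there. Pathway calls lost with the block were LOC_Os04g01140 in the wild type (0.0725), DAHPS1 (0.0518), LOC_Os01g55870 (0.0607) and LOC_Os04g33390 (0.0661) in the RNAi line, and all 4 between genotypes under ethanol. The interaction then called 2 genes. With upper quartile factors 1987 genes rose and 2136 fell in the RNAi line, against 2209 and 1703.

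Several log2 values changed sign between settings, and not all of them were near 0. The interaction of LOC_Os04g43760 (0.01) was -0.06 with upper quartile factors, -0.01 with the replicate block, -0.04 in limma-voom and -0.32 to 0.22 with single libraries left out. That of LOC_Os12g33610 (0.24) was -0.21 with the block, -0.01 in limma-voom, -0.47 without the 3 libraries and -0.81 to 0.78 with single libraries left out. The difference of LOC_Os04g43800 between genotypes under ethanol, -0.98 with all libraries, was 0.35 without the 3 libraries. LOC_Os02g41650 then differed by -0.01 under PEP1. With single libraries left out, the change under PEP1 in the wild type ranged from -0.49 to 0.06 for LOC_Os02g41680 and from -0.1 to 0.25 for LOC_Os05g35290. In the RNAi line that of LOC_Os12g33610, 1.04 with all libraries, ranged from -0.01 to 1.46. The difference between genotypes under ethanol then ranged from -0.33 to 0.08 for LOC_Os02g41650, from -0.28 to 0.36 for LOC_Os02g41670 and from -1.46 to 0.24 for LOC_Os04g43800. That under PEP1 ranged from -0.11 to 0.07 for LOC_Os02g41630 and from -0.01 to 0.21 for LOC_Os02g41650. The cause of these shifts was not tested.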
